A study of Mus musculus with 6 samples.

Results

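Splicing factor genes of 5 name families were followed in irradiated mouse fibroblasts treated with plasma-derived exosomes: the SR proteins (Srsf), the heterogeneous nuclear ribonucleoproteins (Hnrnp), the SF3A and SF3B subunits, the U2AF subunits and the small nuclear ribonucleoprotein, or snRNP, proteins (Snrp). They were taken by symbol from the deposited table, where 55 of 21878 genes carried such a name. They comprised 11 SR proteins, 20 hnRNP proteins, 3 U2AF subunits, 9 SF3A and SF3B subunits, 8 Sm core proteins and 4 proteins specific to the U1 or U2 snRNP. FPKM is the number of fragments of a gene scaled by its length and by the sequencing depth, so levels can be compared between genes. With a minimum of 1 FPKM required in any 3 libraries, 53 of the 55 were tested, among 10274 genes in all.

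NIH3T3, the cell line used, is an immortalised mouse fibroblast line of embryonic origin, and every library carries the label of a radiation injury, the PBS libraries included. One group received exosomes, small membrane vesicles released by cells, and the other received phosphate-buffered saline (PBS), with 3 libraries each at 72 h. The labels give neither the radiation dose nor the preparation of the exosomes, and an unirradiated group was not analysed here. Whether the 3 libraries of either group stem from different cultures is not stated in the labels, so p-values measure the spread between libraries, which may be technical.

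Introns are removed from pre-mRNA by the spliceosome, whose U1 and U2 snRNPs recognise the 5′ splice site and the branch point at the start of assembly. Each of these particles carries a ring of Sm proteins together with proteins of its own, U2AF marks the 3′ splice site, and SF3A and SF3B anchor the U2 snRNP at the branch point. SR proteins mostly bind exonic enhancers and promote the use of nearby splice sites, whereas hnRNP proteins coat the transcript and often act against them. Fibroblasts, like other dividing cells, are known to express most of these factors.

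All 9 fibroblast markers examined reached 1 FPKM, and their summed level was 6750 to 7020 FPKM with exosomes and 5920 to 6170 FPKM with PBS. Leukocyte markers summed to 4.45 to 5.28 FPKM with exosomes and 7.34 to 11.9 FPKM with PBS, with Ptprc, Itgam and Lyz2 under 1 FPKM, and the part of this difference in the results was not tested. Summed markers of the platelet, erythroid, endothelial, epithelial and hepatocyte lists were at most 4.43 FPKM in any library. Among the genes found from these lists, only the platelet genes Itga2b (2.35 FPKM) and Ppbp (1.09 FPKM) averaged 1 FPKM or more. Between 10080 and 10271 genes reached 1 FPKM per library, and the authors' mean normalized counts summed to 19824812 with exosomes and 20341541 with PBS. In bulk RNA, fewer cells of a type and less RNA per cell cannot be told apart.

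Splicing factor genes were lower with exosomes more often than they were higher, and by small amounts. With limma on log2(FPKM + 1) and a Benjamini-Hochberg adjusted p under 0.05 over all genes tested, called lowered or raised from here on, 20 of the 53 were lowered (37.7%), where 18.4% of all genes tested were. Raised were 3 of 53 (5.66%), Hnrnph3, Hnrnpul1 and Snrpc, where 25.4% of all genes tested were raised. The other 30 were not called, which does not show that their levels were equal. The median log2 change, exosomes minus PBS, was -0.09 over the 53 genes and 0.04 over all genes tested. Changes ran from -0.31 for Srsf2 to 0.27 for Hnrnph3, and the median size of the called changes was 0.20 on the log2 scale, against 0.29 for all called genes. In FPKM the lowered genes had group means 10.2% to 19.4% below those of PBS.

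The 3 exosome libraries lay below the 3 PBS libraries without overlap in 25 of 53 genes (47.2%), against 23.5% of all genes tested. They lay above in 5 of 53 (9.43%), against 32.0%. Summed over the 55 genes, the level was 3353, 3329 and 3354 FPKM in exosome replicates 1 to 3 and 3661, 3525 and 3476 FPKM in PBS replicates 1 to 3. Every exosome sum was thus below every PBS sum, and the mean with exosomes was 0.941 of that with PBS. This sum was 1.07% to 1.11% of the summed FPKM of an exosome library and 1.15% to 1.21% of that of a PBS library. PBS replicate 1 was the highest of the 3 PBS libraries in 37 of 53 splicing factor genes (69.8%), against 32.8% of all genes tested. Without that library 12 of the 53 were lowered in place of 20 and the same number, 3, were raised. Lowered were then 22.6% of the splicing factor genes and 13.7% of all genes tested, and raised were 5.66% and 19.9%.

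**Figure D1:**
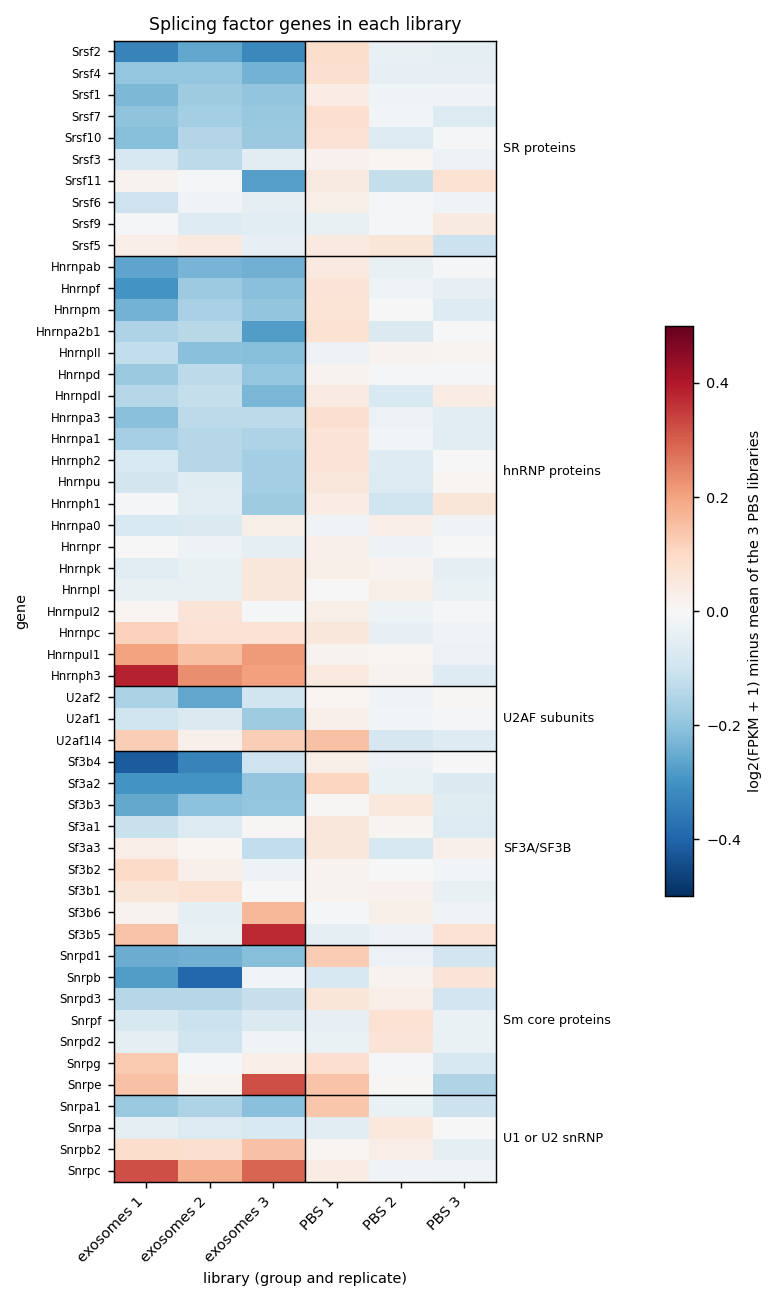
Level of each tested splicing factor gene in each library (columns) as log2(FPKM + 1) minus the mean of the 3 PBS libraries, by colour from blue (lower) to red (higher), with genes in rows by role. Blue cells fill most of the upper SR and hnRNP rows in all 3 exosome libraries, while Hnrnph3, Hnrnpul1 and Snrpc are red in all 3.

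**Figure D2:**
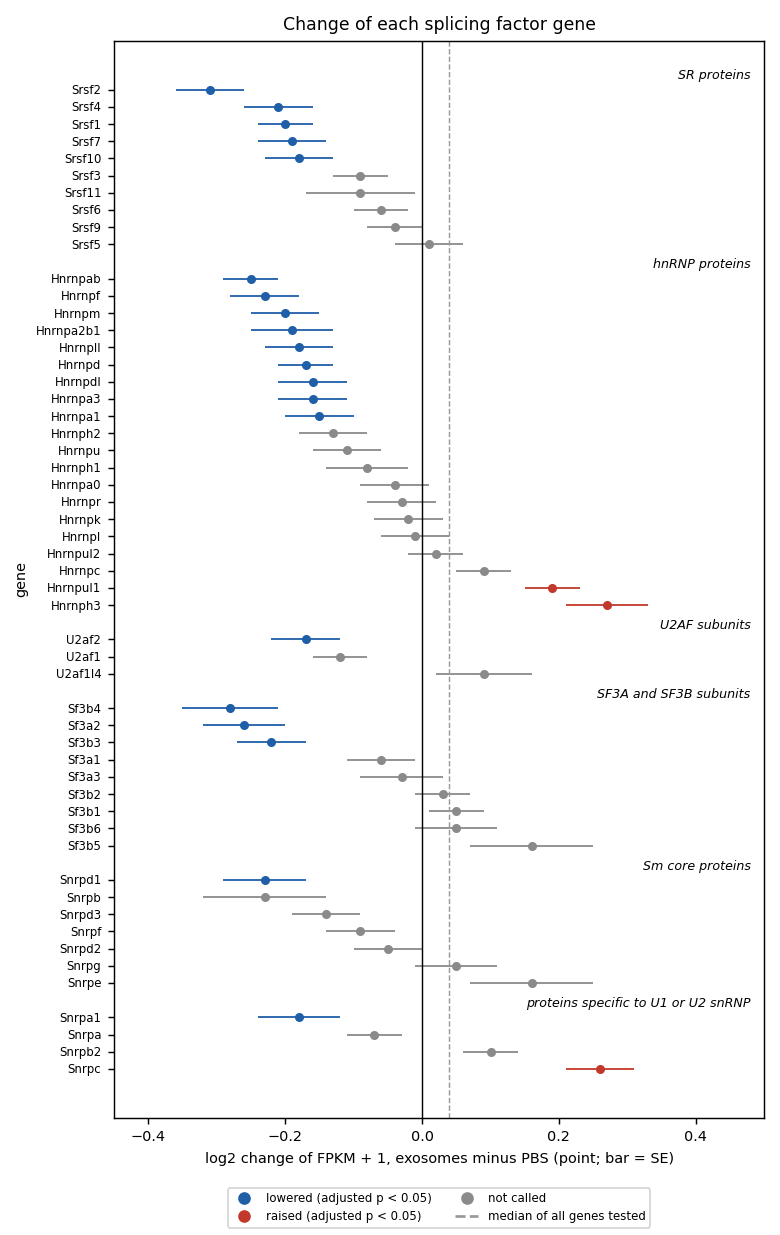
Log2 change of FPKM + 1, exosomes minus PBS (points), with its SE (bars), for the 53 genes by role; blue marks the 20 lowered, red the 3 raised and grey the 30 not called. The dashed line is the median of all genes tested, 0.04, and 39 of the 53 points lie below 0.

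Among the SR proteins 5 of 10 tested genes were lowered (50.0%) and 0 raised, against 18.4% and 25.4% of all genes tested. The median log2 change of the SR genes was -0.13. Srsf2, a nuclear speckle protein that binds exonic enhancers, was the most abundant of them and the gene with the largest decrease. Its levels were 108, 114 and 109 FPKM with exosomes and 145, 133 and 132 FPKM with PBS, so the groups did not overlap. Means were 110 ± 3.0 and 137 ± 6.94 FPKM (SD, n = 3 libraries each), a log2 change of -0.31 ± 0.05 (SE, limma adjusted p = 0.00105). Over 14 alternative settings the adjusted p of Srsf2 stayed between 0.000413 and 0.00674. The gene shares exon bases with Mettl23 (460) and Mfsd11 (288) on the opposite strand in the GENCODE M21 annotation. Mfsd11 was lowered (-0.38, adjusted p = 0.0012) and Mettl23 raised (0.28, adjusted p = 0.0342), and as it is not stated whether reads were counted by strand, their reads may not be fully separate.

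The promoter of Srsf2, as the SR gene with the largest change, is shown beside that of Hnrnpab, the hnRNP gene with the smallest adjusted p. Capitals mark CCAAT boxes (CCAAT or ATTGG), GC boxes (GGGCGG or CCGCCC) and a TATA box (TATAAA or TTTATA), and each run is the 150 bases before the transcription start in RefSeq on GRCm38.p6, at chr11:116853095-116853244 (minus strand) and chr11:51606882-51607031 (minus strand).
Srsf2: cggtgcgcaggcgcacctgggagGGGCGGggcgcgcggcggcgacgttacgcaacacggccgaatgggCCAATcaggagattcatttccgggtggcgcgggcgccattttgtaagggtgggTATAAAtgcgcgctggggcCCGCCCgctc
Hnrnpab: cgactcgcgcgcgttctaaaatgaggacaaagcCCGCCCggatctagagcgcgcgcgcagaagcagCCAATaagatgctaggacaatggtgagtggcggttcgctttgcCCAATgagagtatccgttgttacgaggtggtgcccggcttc
The Srsf2 window holds a TATA box whose first letter is 29 bases before the start, and both windows hold GC and CCAAT boxes.

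Srsf1, the founding member of the family, which promotes the choice of proximal 5′ splice sites, was at 53.8, 55.6 and 54.9 FPKM with exosomes and 64.8, 62.1 and 62.3 FPKM with PBS. All exosome values were below all PBS values, and the log2 change was -0.20 ± 0.04 (adjusted p = 0.00395). Srsf4, a long SR protein with an extended arginine-serine domain, was lower in every exosome library as well. It measured 12.4, 12.4 and 12.0 FPKM against 15.2, 13.9 and 13.9 FPKM, a change of -0.21 ± 0.05 (adjusted p = 0.01). An unnamed non-coding transcript on the opposite strand, Gm12992, shares 43.0% of its annotated exon bases. Srsf1 and Srsf4 were called under each of the 14 alternatives.

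Srsf7, which also serves as an adaptor for mRNA export, was at 39.8, 40.7 and 40.2 FPKM with exosomes and 48.7, 45.5 and 43.7 FPKM with PBS. Its groups did not overlap, and its change of -0.19 ± 0.05 had an adjusted p of 0.0126. Without PBS replicate 1, its highest library, the adjusted p was 0.0546, in a range of 0.00416 to 0.0546 over the alternatives. Srsf10, a repressor of splicing when dephosphorylated, measured 19.5, 20.5 and 19.9 FPKM against 24.0, 21.7 and 22.7 FPKM, again without overlap. The change of -0.18 ± 0.05 (adjusted p = 0.0164) was not called without PBS replicate 1 (0.0732) or exosome replicate 1 (0.0533), in a range of 0.00752 to 0.0732. The count of lowered SR genes was accordingly 3 without PBS replicate 1.

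The other 5 tested SR genes changed by -0.09 to 0.01 and were not called, with adjusted p from 0.122 to 0.872. Srsf5, the second most abundant SR gene, measured 117, 118 and 111 FPKM with exosomes and 118, 119 and 106 FPKM with PBS. The groups overlapped and the change was 0.01 ± 0.05, whereas Srsf2 at a like level was lowered. Srsf3, an SR protein that joins Srsf7 in mRNA export, was below PBS without overlap, at 77.0, 74.3 and 78.6 FPKM against 82.7, 82.0 and 79.7 FPKM. Its change of -0.09 (adjusted p = 0.122) was called with median ratio scaling (0.0305) and as TPM (0.0466). Srsf6, Srsf9 and Srsf11 overlapped between groups, with changes of -0.06, -0.04 and -0.09. Srsf12 was listed at 0 in all 6 libraries and was not tested.

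**Figure D3:**
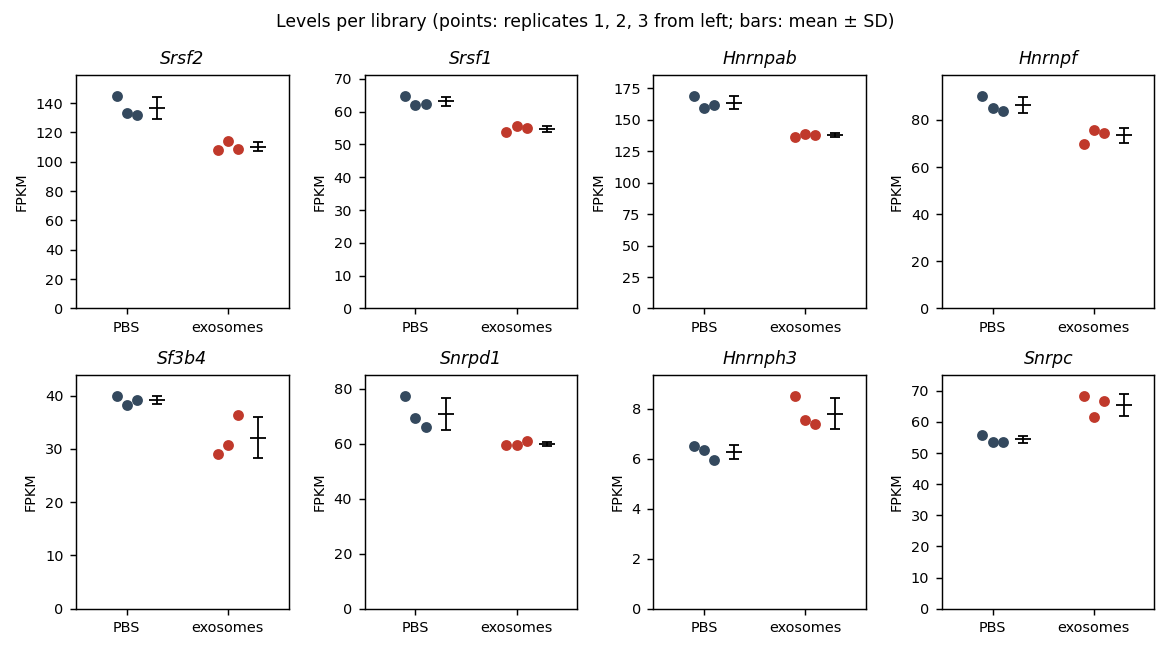
FPKM of 8 genes in each library (points, replicates 1, 2 and 3 from left) with mean and SD (bars), each axis starting at 0, for PBS and exosomes. The groups are separate in all 8, lower with exosomes for Srsf2, Srsf1, Hnrnpab, Hnrnpf, Sf3b4 and Snrpd1 and higher for Hnrnph3 and Snrpc.

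The hnRNP proteins were the largest group, with 9 of 20 genes lowered, 2 raised and a median log2 change of -0.12. Hnrnpab, a relative of the A and B type proteins that also binds DNA, was at 136, 139 and 138 FPKM with exosomes and 169, 159 and 162 FPKM with PBS. The groups did not overlap, and means of 137 ± 1.39 and 163 ± 4.81 FPKM gave a change of -0.25 ± 0.04 (adjusted p = 0.00154). Hnrnpf, which binds runs of guanine, measured 69.9, 75.9 and 74.5 FPKM with exosomes and 90.2, 84.9 and 83.7 FPKM with PBS. The lowest PBS value was again above the highest exosome value, and the change was -0.23 ± 0.05 (adjusted p = 0.00477).

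Hnrnpm, known for its part in the splicing switch of epithelial-mesenchymal transition, was at 57.4, 60.5 and 59.1 FPKM with exosomes and 71.2, 67.7 and 64.8 FPKM with PBS. Its groups were separate and its change was -0.20 ± 0.05 (adjusted p = 0.00814). Hnrnpll, best known for exon exclusion in Ptprc transcripts of lymphocytes, measured 25.4, 23.9 and 23.8 FPKM against 27.2, 28.1 and 28.0 FPKM. Here too every exosome value was lower, with a change of -0.18 ± 0.05 (adjusted p = 0.0108). Hnrnpd, or AUF1, a factor in the decay of AU-rich mRNAs, measured 17.1, 17.8 and 17.0 FPKM against 19.8, 19.5 and 19.4 FPKM. The groups of Hnrnpd did not overlap and the change was -0.17 ± 0.04 (adjusted p = 0.0121). These 5 genes, Hnrnpab, Hnrnpf, Hnrnpm, Hnrnpll and Hnrnpd, were lowered under each of the 14 alternatives. Hnrnpm shares 14.7% of its annotated exon bases with March2 on the same strand. On the opposite strand Hnrnpab shares 29.1% with Phykpl, Hnrnpf 13.5% with 4933440N22Rik and 13.0% with Gm43863, and Hnrnpd 5.2% with Gm17092. Reads of these overlapping genes may not be fully separate.

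The calls of Hnrnpa1, Hnrnpa2b1, Hnrnpa3 and Hnrnpdl did not hold in every setting. Hnrnpa1, the classical antagonist of Srsf1 and the most abundant gene of all 55, was at 229, 233 and 231 FPKM with exosomes and 269, 255 and 248 FPKM with PBS. The groups were separate, with means of 231 ± 1.58 and 257 ± 10.7 FPKM and a change of -0.15 ± 0.05 (adjusted p = 0.0234). Its adjusted p was 0.106 without PBS replicate 1, 0.0691 without exosome replicate 1 and 0.0539 without exosome replicate 3, in a range of 0.00614 to 0.106. Hnrnpa2b1, an A and B type protein also known for sorting RNA into vesicles, measured 171, 173 and 157 FPKM against 201, 181 and 190 FPKM. Its change of -0.19 ± 0.06 (adjusted p = 0.0235) was not called without PBS replicate 1 (0.0993), exosome replicate 3 (0.0835) or the filter (0.0524), in a range of 0.01 to 0.0993. Hnrnpa3 and Hnrnpdl each changed by -0.16 (adjusted p = 0.0347 and 0.0248), with the highest adjusted p, 0.139 and 0.0924, without PBS replicate 1. Their calls were lost under 6 and 4 of the 14 alternatives. Without PBS replicate 1 or without exosome replicate 3, 5 hnRNP genes were lowered in place of 9. Hnrnpa3 has 32 annotated pseudogenes of at least 95% identity over 300 or more bases, Hnrnpa1 has 9 and Hnrnpf 6, so reads of these genes may be split between copies.

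Against this direction, Hnrnph3, a smaller relative of the H and F type proteins, was at 8.5, 7.53 and 7.38 FPKM with exosomes and 6.51, 6.36 and 5.95 FPKM with PBS. All exosome values were above all PBS values, and the change of 0.27 ± 0.06 (adjusted p = 0.00736) was the largest increase among the splicing factor genes. Hnrnpul1, a protein related to Hnrnpu with a known part in the DNA damage response, measured 48.9, 47.1 and 49.3 FPKM against 42.9, 42.7 and 41.5 FPKM. The groups were separate and the change was 0.19 ± 0.04 (adjusted p = 0.00575). Both were raised under each alternative. The 9 hnRNP genes without a call changed by -0.13 to 0.09. They included the abundant Hnrnpk (-0.02, adjusted p = 0.813) and Hnrnph1 (-0.08, adjusted p = 0.303), as well as Hnrnpl, Hnrnpr, Hnrnpa0, Hnrnpul2 and Hnrnpu. Of these 9, Hnrnph2 was below and Hnrnpc above PBS without overlap, with changes of -0.13 (adjusted p = 0.0569) and 0.09 (adjusted p = 0.139). Hnrnph2 was called lowered with upper quartile (0.0488) and median ratio scaling (0.0215), as TPM (0.0391) and without PBS replicate 2 (0.0308). Hnrnpu was called lowered with median ratio scaling (0.0406) and without PBS replicate 2 (0.0498).

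Of the 3 U2AF subunits 1 was lowered (33.3%) and 0 raised, against 18.4% and 25.4% of all genes tested. The lowered gene was U2af2, the large U2AF subunit that binds the polypyrimidine tract. It measured 32.8, 30.5 and 34.2 FPKM with exosomes and 37.0, 36.3 and 36.9 FPKM with PBS, without overlap. The change of -0.17 ± 0.05 (adjusted p = 0.0195) was not called without exosome replicate 2 (0.0715) or PBS replicate 1 (0.0629), in a range of 0.00732 to 0.0715. U2af1, its partner that reads the AG of the 3′ splice site, measured 49.2, 50.2 and 46.5 FPKM against 53.7, 52.3 and 52.4 FPKM. Its groups were also separate, but the change of -0.12 ± 0.04 missed the threshold (adjusted p = 0.0569), and it passed with median ratio scaling (0.0203) and as TPM (0.0482). U2af1l4, a paralog of U2af1, overlapped between groups with a change of 0.09 ± 0.07 (adjusted p = 0.296), and 65.6% of its exon bases are shared with another annotated gene.

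In the SF3A and SF3B complexes 3 of 9 genes were lowered (33.3%) and 0 raised, against 18.4% and 25.4% of all genes tested. The median log2 change of the 9 genes was -0.03. Sf3b4, which contacts pre-mRNA near the branch point, was at 29.1, 30.8 and 36.4 FPKM with exosomes and 39.9, 38.3 and 39.2 FPKM with PBS. Exosome replicate 3 lay well above the other two exosome libraries yet below all PBS libraries, and the change was -0.28 ± 0.07 (adjusted p = 0.0125, highest 0.0495 over the alternatives). Sf3a2, a subunit of the trimer that joins the U2 snRNP, measured 11.3, 11.3 and 12.2 FPKM against 15.3, 13.8 and 13.4 FPKM. The groups were separate, with a change of -0.26 ± 0.06 (adjusted p = 0.00644). Sf3b3, a scaffold of SF3B, measured 31.8, 32.9 and 33.2 FPKM against 38.3, 39.6 and 36.5 FPKM, without overlap and with a change of -0.22 ± 0.05 (adjusted p = 0.00454). All 3 were lowered under each alternative.

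The other 6 subunits overlapped between groups and were not called. Sf3b2, the most abundant of the complex, was at 92.1, 87.7 and 84.6 FPKM with exosomes and 87.3, 86.0 and 85.3 FPKM with PBS, a change of 0.03 ± 0.04. Sf3b1, the subunit that grips the branch point helix, was at 64.1, 64.7 and 61.3 FPKM against 62.1, 62.3 and 59.7 FPKM, a change of 0.05 ± 0.04. Sf3a1, Sf3a3 and Sf3b6 changed by -0.06, -0.03 and 0.05. Sf3b5, a small subunit, ranged from 26.5 to 35.6 FPKM among exosome libraries, and its change of 0.16 ± 0.09 (adjusted p = 0.186) was called raised without exosome replicate 2 (0.0296). Lowered and uncalled subunits thus stood side by side within 1 complex. The ratio of Sf3b4 to Sf3b2 within a library was 0.316, 0.352 and 0.431 with exosomes and 0.457, 0.445 and 0.459 with PBS.

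The Sm core proteins form the ring shared by the spliceosomal snRNPs, and their median change was -0.09. Of the 7 tested genes 1 was lowered (14.3%), against 18.4% of all genes tested. Snrpd1 was that gene, at 59.5, 59.7 and 60.9 FPKM with exosomes and 77.4, 69.3 and 66.1 FPKM with PBS. Exosome values were close together and PBS values spread, without overlap, and the change was -0.23 ± 0.06 (adjusted p = 0.00941, highest 0.0339 over the alternatives). Snrpd3, the most abundant Sm gene, measured 143, 143 and 146 FPKM against 165, 162 and 148 FPKM. The groups were separate, but its change of -0.14 ± 0.05 missed the threshold (adjusted p = 0.0535) and passed it without PBS replicate 3 (0.0142), with upper quartile (0.0384) and median ratio scaling (0.0138) and as TPM (0.0156). Its adjusted p ranged from 0.0138 to 0.191.

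Snrpb, which encodes the B protein, was at 29.4, 27.1 and 35.6 FPKM with exosomes and 33.9, 36.4 and 37.6 FPKM with PBS. Exosome replicate 3 overlapped PBS, and the change of -0.23 ± 0.09 (adjusted p = 0.0664) was called lowered without it (-0.34, 0.00423). Snrpb was also called with median ratio scaling (0.0406) and as TPM (0.0318), in a range of 0.00423 to 0.202. Snrpe had a higher mean with exosomes, at 95.7, 87.4 and 108 FPKM against 95.3, 86.7 and 77.7 FPKM, with overlap and a change of 0.16 ± 0.09 (adjusted p = 0.174). Snrpf (-0.09), Snrpd2 (-0.05) and Snrpg (0.05) were not called, and Snrpf was called lowered with median ratio scaling (0.0449). Snrpn, which replaces the B protein in brain, was listed at 3.06e-06 to 4.33e-06 FPKM with a mean normalized count of 0 in the authors' deposited table, and was not tested. Snurf, the upstream reading frame of the same transcript, was listed at 2.31 to 3.18 FPKM and also with a mean count of 0.

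The 4 proteins specific to the U1 or U2 snRNP split by gene. Lowered was 1 and raised was 1, 25.0% each, against 18.4% and 25.4% of all genes tested. Snrpc, the U1 protein that stabilises pairing with the 5′ splice site, was at 68.3, 61.6 and 66.7 FPKM with exosomes and 55.8, 53.7 and 53.6 FPKM with PBS. All exosome values were higher, with a change of 0.26 ± 0.05 (adjusted p = 0.00231, highest 0.0113 over the alternatives). Snrpa, the U1 protein that binds a stem loop of the U1 RNA, overlapped between groups with a change of -0.07 ± 0.04 (adjusted p = 0.249). Of the U2 pair that binds its RNA together, Snrpa1 measured 24.2, 24.7 and 23.8 FPKM against 30.5, 27.0 and 25.6 FPKM. Its groups were separate and its change was -0.18 ± 0.06 (adjusted p = 0.0372). The call was lost without any 1 of exosome replicates 1, 2 and 3 (0.0876, 0.0702 and 0.0979) or PBS replicate 1 (0.134), without the filter (0.0799) and without trend and robust variances (0.0539), in a range of 0.0125 to 0.134. Snrpb2, its partner, measured 38.7, 38.5 and 40.3 FPKM against 36.6, 37.2 and 35.2 FPKM, higher without overlap, with a change of 0.10 ± 0.04 (adjusted p = 0.0807).

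Because both genes of a pair come from the same library, a ratio within a library does not depend on scaling between libraries. The ratios of 8 pairs of partner genes are given as a description with no test, since the pairs were chosen after the values were seen and several set a called gene beside one without a call. The ratio of Snrpa1 to Snrpb2 was 0.625, 0.641 and 0.591 with exosomes and 0.831, 0.727 and 0.727 with PBS, a log2 difference of -0.30 without overlap. The ratio of Snrpc to Snrpa was 1.37, 1.26 and 1.37 against 1.12, 1.0 and 1.04, a difference of 0.33 that was also without overlap. Snrpd1 to Snrpd2 (-0.19), Sf3b4 to Sf3b2 (-0.32) and Srsf1 to Hnrnpa1 (-0.05) were separate too. The difference for Srsf1 to Hnrnpa1 was small, with means of 0.237 ± 0.00232 and 0.245 ± 0.00548, and the genes themselves changed by -0.20 and -0.15. U2af2 to U2af1 (-0.06), Snrpd3 to Snrpb (0.10) and Snrpe to Snrpg (0.11) overlapped between groups. Leaving out each library in turn moved the Snrpa1 to Snrpb2 difference between -0.33 and -0.23 and the Snrpc to Snrpa difference between 0.30 and 0.38. That of U2af2 to U2af1 ran from -0.13 to 0.01.

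**Figure D4:**
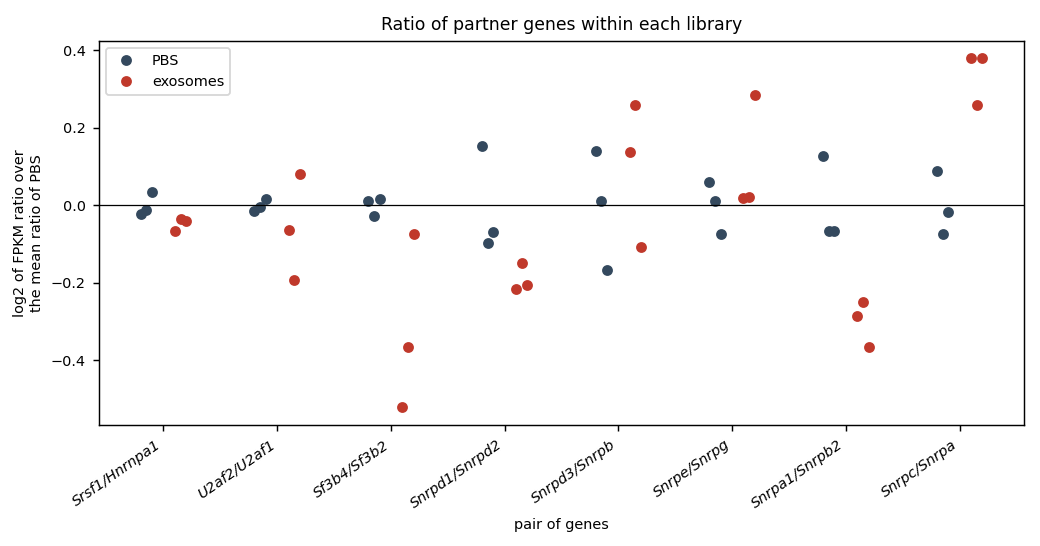
FPKM ratio of 8 pairs of partner genes within each library, as log2 over the mean ratio of the 3 PBS libraries (blue: PBS; red: exosomes; replicates 1 to 3 from left). The Snrpa1 to Snrpb2 ratio lies lower and the Snrpc to Snrpa ratio higher in all 3 exosome libraries, while U2af2 to U2af1, Snrpd3 to Snrpb and Snrpe to Snrpg overlap.

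The authors' deposited table gives a fold change and an adjusted p from counts by DESeq. There, 21 of the 53 genes of the authors' deposited table were lower at an adjusted p under 0.05 (39.6%), and 1 was higher (1.89%). Of all 15844 genes with a p in the authors' deposited table, 13.5% were lower and 12.4% higher, but these include genes of low level. Among the genes tested by limma, the like set, 19.8% were lower and 16.8% higher. Both sources called 21 genes in the same direction. These were the 20 lowered genes and Hnrnph3, whose fold change in the authors' deposited table was 1.16 (adjusted p = 0.0462). Snrpd3 was called by the authors' deposited table alone (fold change 0.842, adjusted p = 0.00093). Snrpc and Hnrnpul1 were raised by limma alone, with fold changes of 1.08 (adjusted p = 0.341) and 1.09 (adjusted p = 0.105) in the authors' deposited table. For Srsf2 the authors' deposited table gave a fold change of 0.788 (adjusted p = 1.06e-07), with mean normalized counts of 5269 and 6687. The sign was the same in 50 of 53 genes, and Snrpc differed most, by 0.15 on the log2 scale. In 41 of 53 genes the log2 fold change of the authors' deposited table was lower than that of limma, and over all 53 the mean difference was 0.03. The medians of the 53 genes were -0.09 by limma and -0.13 in the authors' deposited table. Over all genes tested the medians were 0.04 and -0.01, so the authors' values were also lower there.

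**Figure D5:**
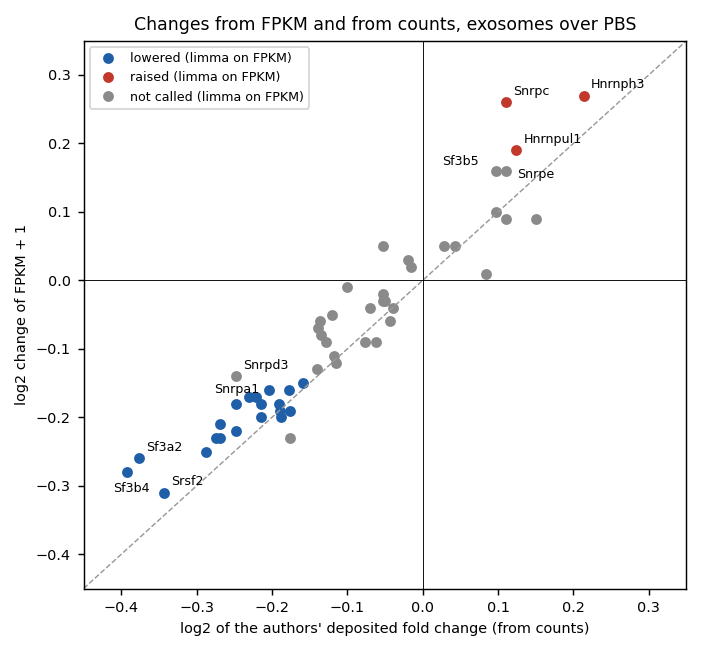
Log2 change of FPKM + 1 from limma (y) against log2 of the fold change in the authors' deposited table (x), exosomes over PBS, for 53 genes; colours mark the limma call and the dashed line is equality. Snrpc lies farthest from the line, 0.15 above it, and most points lie slightly above the line.

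Levels within a group were close together. The coefficient of variation over 3 libraries had a median of 3.32% with exosomes and 4.15% with PBS over the 53 genes. It was above 10% among exosome libraries for Sf3b5 (14.8%), Snrpb (14.4%), Sf3b4 (12.0%), Srsf11 (11.3%) and Snrpe (10.6%), and among PBS libraries for Snrpe (10.2%). Across the 53 genes, which are not independent replicates, the change had a Spearman correlation of -0.01 with transcript length.

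Many of these genes, the SR genes above all, are known to make transcripts with premature stop codons that are removed by nonsense-mediated decay. In GENCODE M21 such a transcript is annotated for 9 of 11 SR genes (81.8%), 10 of 20 hnRNP genes, 3 of 3 U2AF genes, 1 of 9 SF3A and SF3B genes, 2 of 8 Sm genes and 2 of 4 U1 or U2 specific genes. Over the 53 tested genes the share was 50.9%, against 30.5% of 9934 tested genes with a coding transcript. It was 55.0% of the 20 lowered genes and 50.0% of the 30 not called. The deposited values are per gene, so a productive transcript could not be told apart from one with a premature stop. Of the 23 called genes, 10 share 100 or more exon bases with another annotated gene and 9 have a pseudogene of at least 95% identity. Of all 53 tested splicing factor genes, 19 share such bases and 18 have such a pseudogene.

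RefSeq promoter windows were searched for 48 of the 55 genes, 66 windows in all, of which 61 belong to 46 tested genes. Windows from part of the genome were left out of the search and of all window counts here. A gene without a window, such as Snrpd1, may therefore have one in RefSeq. Fixed letters were sought on both strands in the 250 bases before the start. The ETS motif CCGGAAG was in 31.1% of these 61 windows, in 14.5% of 10629 windows of genes tested and in 6.91% of all 32851 windows searched. The NRF1 letters GCATGCG were in 9.84%, 5.66% and 3.02%, and overlapping matches counted once per window. CCAAT boxes (45.9% of the 61 and 36.0% of windows of genes tested), GC boxes (70.5% and 60.2%), the E-box CACGTG (8.2% and 8.68%), the TATA box (8.2% and 6.01%) and the YY1 letters AAGATGG (1.64% and 4.32%) were counted likewise. The median GC content was 61.6% and 60.4%. Of 22 windows of lowered genes 8 held the ETS letters (36.4%) and 1 the NRF1 letters (4.55%). Of 36 windows of genes not called, 10 (27.8%) and 5 (13.9%) did. A gene with several starts gives several windows, which can share bases, so windows are not separate genes. Hnrnpf, which was lowered, has 4 windows and Hnrnph1, which was not called, has 5.
One lowered and one raised gene with the ETS letters are shown, Sf3a2 at chr10:80798585-80798734 and Snrpc at chr17:27839937-27840086 (both plus strand, RefSeq on GRCm38.p6, 150 bases before the start). Capitals mark CCGGAAG.
Sf3a2: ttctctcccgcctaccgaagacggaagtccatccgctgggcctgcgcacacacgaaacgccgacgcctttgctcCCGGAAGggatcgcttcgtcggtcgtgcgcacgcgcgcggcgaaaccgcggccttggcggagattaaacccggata
Snrpc: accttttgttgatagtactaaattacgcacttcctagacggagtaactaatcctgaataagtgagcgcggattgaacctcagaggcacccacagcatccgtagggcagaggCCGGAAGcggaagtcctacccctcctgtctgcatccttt
The first letter of the match is 76 bases before the start in Sf3a2 and 39 in Snrpc, genes that changed in opposite directions. A match of letters is a description and not a shown binding site.

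The rest of the splicing machinery, in 7 lists of related genes, was counted beside these families. Of its 150 tested genes 28 were lowered (18.7%) and 21 raised (14.0%), with a median log2 change of -0.03. The lowered share was near that of all genes tested, 18.4%, and the raised share below it, 25.4%. The difference between these lists and the splicing factor families was not tested. Among other core spliceosome proteins 7 of 49 were lowered and 7 raised, 14.3% each. Dhx15, the helicase that takes the spliceosome apart, was lowered from 52.3 ± 1.08 to 42.7 ± 1.05 FPKM (-0.28, adjusted p = 0.000693). Txnl4a, a small protein of the U5 particle, was lowered (-0.23, adjusted p = 0.00439) and Prpf40b was raised (0.32, adjusted p = 0.00393).

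Among SR-related proteins and SR protein kinases 3 of 19 were lowered (15.8%) and 1 raised (5.26%), against 18.4% and 25.4% of all genes tested. The raised gene was Clk1, a kinase of SR proteins, at 67.5, 62.7 and 60.3 FPKM with exosomes and 49.9, 51.6 and 50.0 FPKM with PBS. Its groups were far apart, and the change was 0.32 (adjusted p = 0.00083). Clk2 and Prpf4b, kinases of the same broad group, were both lowered by -0.18 on the log2 scale (adjusted p = 0.0177 and 0.0247).

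Of 39 other splicing regulators 9 were lowered (23.1%) and 8 raised (20.5%), against 18.4% and 25.4% of all genes tested. Ptbp1, the polypyrimidine tract protein also called hnRNP I, measured 104, 109 and 110 FPKM with exosomes and 139, 138 and 126 FPKM with PBS. The groups did not overlap and the change was -0.31 (adjusted p = 0.0012), as large as that of Srsf2. Mbnl2, a regulator of tissue-specific exons, was lowered from 63.2 ± 3.81 to 46.9 ± 3.19 FPKM (-0.42, adjusted p = 0.000612). Cirbp, a cold-inducible RNA-binding protein, was raised from 14.4 ± 1.65 to 22.5 ± 0.997 FPKM (0.61, adjusted p = 0.000259).

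For snRNP assembly and import 3 of 16 genes were lowered and 3 raised, 18.8% each, against 18.4% and 25.4% of all genes tested. Wdr77, the partner of Prmt5 in the methylation of Sm proteins, measured 25.0, 25.3 and 25.2 FPKM with exosomes and 34.3, 31.0 and 35.1 FPKM with PBS. The exosome values were nearly equal and well below PBS, and the change was -0.40 (adjusted p = 0.000392). In the SMN complex, which loads the Sm ring, Gemin5 was lowered (-0.26, adjusted p = 0.0181) and Gemin2 raised (0.32, adjusted p = 0.014). Of 10 LSm genes 3 were lowered, among them Lsm1 (-0.21, adjusted p = 0.0175) and Lsm2 (-0.27, adjusted p = 0.0276), and Lsm10, a part of the U7 particle of histone mRNA processing, was raised (0.28, adjusted p = 0.00934). Of 12 minor spliceosome genes Snrnp48 and Rbm48 were lowered (16.7%) and 0 raised. Of 5 exon junction genes Eif4a3 was lowered (-0.19, adjusted p = 0.0276) and Magohb raised (0.20, adjusted p = 0.0424), 20.0% each.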

How the data were processed

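RNA was measured in 6 libraries of irradiated NIH3T3 cells, 3 per group, with a stranded mRNA kit according to the protocol in the labels. Build mm9 and the tools DESeq, Cufflinks, HTSeq, HISAT2, StringTie, Bowtie2, Trimmomatic and SAMtools are listed in the submitters' processing notes, without roles or versions. Expression values per library, deposited by the authors, are read here as FPKM: the header says only expression, and normalized counts divided by these values increased with transcript length (Spearman 0.53 over 8938 genes). Per the file headers the table also holds a normalized count signal as a group mean, a fold change (ratio) and a p-value with its adjusted p-value. Counts per library were not used here, so no count model was fitted and depth per library is not given.

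Genes with at least 1 FPKM in 3 of 6 libraries were tested on log2(FPKM + 1) with limma 3.58.1 in R 4.3.3 (abundance trend, robust, group only, two-sided), with Benjamini-Hochberg adjustment over 10274 genes. Fold changes on this scale understate those of low genes. The fit was also run on simulated data with known changes, whose outcome is not used here. Named genes are, per role, up to 6 called genes with the smallest p, the most abundant gene, untested genes and those against the direction of most calls, and up to 3 called genes per related list; others were added after their values were seen. The genes and lists were chosen with earlier results of these data known. The 14 alternatives were a pseudocount of 0.1, no filter, a filter of 5 FPKM, upper quartile and median ratio scaling, TPM, another variance model, a replicate block and leaving out each library. Ratios of partner genes, without a test, used Python 3.11.15. GENCODE M21 and RefSeq, both on GRCm38, gave lengths, overlaps and promoters, and BLAST 2.17.0 gave pseudogenes; the deposited table has no coordinates.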

Additional observations from a re-analysis of the deposited data

How the results depend on the processing

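All 23 called splicing factor genes kept the sign of their change in each of 14 alternatives, and 15 kept their call in each; 22 genes were called in none. The number lowered, 20, ran from 12 to 22 when each library was left out in turn, with 12 without PBS replicate 1, and was 27 with median ratio scaling, 25 as TPM and 17 without a filter. Of all genes 22.2%, 18.6% and 11.4% were lowered under these 3 settings, against 18.4%. The number raised, 3, ran from 3 to 4. Of all genes 25.4% were raised in the main fit, 21.9% with median ratio scaling, 22.1% as TPM and 16.4% without a filter. With each library left out 19.9% to 25.5% of all genes were raised. The median change of the splicing factor genes was -0.12 with median ratio scaling, -0.11 as TPM and -0.12 to -0.08 with each library left out. Over all genes the median, 0.04 in the main fit, was 0.0, 0.02 and 0.03 to 0.04 in these settings. Same-numbered libraries did not deviate together (correlations of -0.12, -0.021 and -0.295), and a replicate block gave 18 lowered genes, 6 of them hnRNP genes, and 3 raised. With the block Hnrnpa1 (0.0769), Hnrnpa3 (0.0763) and Hnrnpdl (0.0548) lost their call and Snrpb (0.032) gained one (adjusted p, limma).

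By role, the number lowered without each library in turn ran from 3 to 5 for SR, 5 to 11 for hnRNP, 0 to 1 for U2AF, 1 to 2 for Sm and 0 to 1 for U1 or U2 specific genes, and the number of SF3A and SF3B genes raised from 0 to 1. Of all genes tested 13.7% to 18.0% were lowered without each library in turn, against 18.4% with all libraries. U2AF genes lowered were 2 with median ratio scaling and as TPM. Sm genes lowered were 2 with upper quartile scaling and with the replicate block, 4 with median ratio scaling and 3 as TPM. U1 or U2 specific genes lowered were 0 without a filter and 0 without trend and robust variances.

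For the related lists, leaving out each library gave 4 to 6 raised and 4 to 9 lowered other core spliceosome genes, 1 to 2 and 0 to 4 LSm genes, 0 to 4 lowered SR-related genes, 4 to 6 raised and 4 to 9 lowered regulators, 0 to 3 and 1 to 4 assembly genes, 0 to 1 of each for the minor spliceosome and 0 to 1 of each for the exon junction. Median ratio scaling gave 11 lowered core, 5 lowered SR-related, 4 raised regulator, 1 raised assembly and 0 raised exon junction genes. TPM gave 5 raised regulators and 0 raised exon junction genes. The replicate block gave 2 raised LSm, 4 raised regulator and 0 lowered minor spliceosome genes. The filter of 5 FPKM gave 1 raised assembly and 1 lowered minor spliceosome gene, and no filter gave 1 lowered minor spliceosome and 0 exon junction genes in either direction. Of all genes, 22.2% were lowered and 21.9% raised with median ratio scaling, 18.6% and 22.1% as TPM, and 11.4% and 16.4% without a filter. With each library left out 13.7% to 18.0% were lowered and 19.9% to 25.5% raised, against 18.4% and 25.4% in the main fit. The cause of these shifts between settings was not tested beyond the construction of each setting. Standard errors of the log2 changes were 0.04 to 0.09 with 3 libraries per group, which limits what small changes can be told from 0.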
